A study of Aspergillus nidulans with 6 samples.

Results

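The chromatin data concern 4 genes of nitrogen assimilation in *Aspergillus nidulans*, *niiA* (AN1007), *meaA* (AN7463), *gdhA* (AN4376) and *glnA* (AN4159). They were chosen by name for their place in nitrate and ammonium use, and each is represented by 1 peak, so that 4 of the 468 peaks of the deposited list were examined. The study had already listed all 4 as regions that interact with KaeA in these same libraries, so that the choice was not blind to their enrichment. The study asked which chromatin regions are associated with KaeA, a subunit of the KEOPS complex that modifies tRNA, by ChIP-Seq of mycelium that expresses KaeA with a haemagglutinin (HA) tag. In the strain the tagged gene *kaeA::HA* was selected with *A.f. pyrG* (the *pyrG* gene of *A. fumigatus*) and stands in a *pyrG89*, *argB2*, *pabaB22* and *riboB2* background in which *nkuA* was replaced by *argB*. Both groups share this strain, the minimal medium with nitrate as nitrogen source and crosslinking with 1% formaldehyde for 15 min. The input group holds 3 libraries of sonicated chromatin before precipitation, and the IP group holds 3 libraries after precipitation with an anti-HA antibody. Replicates 1, 2 and 3 are independent biological experiments. No library of an untagged strain was analysed here, so each value compares precipitated with input chromatin of the tagged strain only. The genotype field of the labels counts upwards from *riboB2* along the samples, while the study's methods give *riboB2* for the strain.

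*A. nidulans* takes up nitrate with transporters such as that encoded by *crnA* and reduces it to nitrite with nitrate reductase, the product of *niaD*. Nitrite reductase, encoded by *niiA*, converts nitrite to ammonium. External ammonium enters the cell through permeases, of which MeaA is the main one. NADP-dependent glutamate dehydrogenase (*gdhA*) joins ammonium to 2-oxoglutarate to give glutamate, and glutamine synthetase (*glnA*) adds a further ammonium to glutamate to give glutamine. The genes *niiA* and *niaD* are transcribed away from each other from a shared intergenic region, under the control of the general nitrogen regulator AreA, a GATA factor, and the nitrate regulator NirA.

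After scaling, all 4 peaks had more reads in IP than in input, and the folds were not of 1 size. The difference between *glnA* and *niiA* did not pass the threshold (edgeR adjusted p of 0.0712), and that between *meaA* and *niiA* depended on single libraries. The peak at *gdhA* was 2.05-fold higher in IP (95% interval 1.81 to 2.32), that at *meaA* 1.63-fold (1.46 to 1.82), that at *niiA* 1.38-fold (1.23 to 1.54) and that at *glnA* 1.20-fold (1.07 to 1.35). The peak list was made by calling peaks with MACS2 on merged IP against merged input libraries, and the reads of each library were then counted on it. Fold changes were taken from the quasi-likelihood test of edgeR after TMM scaling of the counts, and describe a peak relative to the typical peak of the list. Over all 468 peaks, 52 were called higher in IP (11.1%) and 24 lower (5.13%) at a Benjamini-Hochberg adjusted p under 0.05, and the median log2 fold change was -0.02. All 4 members were among the 52. The study named these genes from the same libraries, so that their calls are no independent evidence.

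The direction of the smaller folds depends on what the counts are scaled to. With TMM factors taken from only the 60 peaks that MACS2 gave an enrichment of 2 or more, the median of all peaks moved to -0.49, and the calls split into 12 above and 405 below input. These 60 peaks were picked for enrichment in the same reads and include the members. This scaling therefore moves the centre of the enriched peaks towards 0 by construction. Scaled by library size alone, they split into 38 above and 60 below, and *glnA* was at 0.16 and not called (edgeR adjusted p of 0.215). With the factors from the enriched peaks, the log2 fold change was 0.57 at *gdhA* and 0.24 at *meaA*, both still called higher in IP (edgeR adjusted p of 0.000149 and 0.00735), -0.0056 at *niiA* and -0.20 at *glnA*, the latter called lower in IP (adjusted p = 0.0362). When a smooth trend of fold change with peak length was taken out, *gdhA* (0.72) and *meaA* (0.34) were still called, while *niiA* (-0.035) and *glnA* (-0.0057) were not (edgeR adjusted p of 0.868 and 0.986). The trend came from the fold changes of the same peaks, so that its removal can also take away enrichment of long peaks.

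The libraries summed to between 162458 and 377238 counts on peaks, and the smallest count of any peak in any library was 59. Libraries of 1 group were not copies, since their counts differed by a chi-square of 1.96 to 2.15 per degree of freedom for input and of 4.28 to 11.04 for IP, more than sampling noise gives. The highest values belong to the pairs with IP replicate 2.

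The *niiA* peak lies on chromosome VIII from 1764786 to 1768422 (ASM1142v1) and is 3637 bp long, the peak of rank 2 by length in the list. It held 1682, 2152 and 1273 reads in input replicates 1, 2 and 3 and 3733, 2432 and 2579 reads in IP replicates 1, 2 and 3. After scaling, these are normalized counts of 1796, 1949 and 1989 in input and of 2697, 2660 and 2526 in IP. Every IP library stood above every input library, and the lowest IP value was 1.27 times the highest input value. The log2 fold change was 0.46 ± 0.08 (standard error), with an edgeR quasi-likelihood adjusted p of 0.000259. As given above, the peak was not called, and its value was just under 0, with TMM factors from the enriched peaks or with the length trend taken out. Over all peaks, 77 of 468 (16.5%) had all IP libraries above all input libraries.

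The *meaA* peak, on chromosome IV from 1561586 to 1563893, is 2308 bp long. Its reads numbered 1331, 1497 and 877 in input and 3052, 2061 and 2356 in IP. The normalized counts were 1421, 1356 and 1370 in input and 2205, 2254 and 2308 in IP, with the smallest spread of the 4 peaks in both groups (SD 34.2 in input and 51.4 in IP, n = 3 each). The lowest IP library was 1.55 times the highest input library. The log2 fold change was 0.71 ± 0.08 (standard error), with an edgeR adjusted p of 1.42e-06.

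The *gdhA* peak, on chromosome III from 2214129 to 2216107, is 1979 bp long and had the highest enrichment of the 4. Its reads numbered 1171, 1328 and 916 in input and 3698, 2270 and 2842 in IP. The normalized counts were 1250, 1203 and 1431 in input and 2672, 2483 and 2784 in IP. Input replicate 3 was the highest input library, yet the lowest IP library was still 1.73 times its value. The log2 fold change was 1.03 ± 0.09 (standard error), with an edgeR adjusted p of 3.76e-08. Only 4 of the 468 peaks had a higher one.

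The *glnA* peak, on chromosome II from 1860107 to 1861768, is 1662 bp long and had the lowest enrichment of the 4. Its reads numbered 831, 1044 and 636 in input and 1498, 1007 and 1235 in IP. The normalized counts were 887, 946 and 994 in input and 1082, 1101 and 1210 in IP. The groups did not overlap, but the lowest IP library was only 1.09 times the highest input library. The log2 fold change was 0.26 ± 0.08 (standard error), with an edgeR adjusted p of 0.0336. The call was lost without input replicate 1, 2 or 3 and without IP replicate 1 or 3, where edgeR gave adjusted p-values of 0.208, 0.126, 0.0608, 0.0568 and 0.160, and it was kept only without IP replicate 2 (0.00126).

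Levels of different peaks were compared per kb of peak, since the 4 peaks differ in length. In input, the normalized count per kb was 526 ± 28.1 (SD, n = 3) at *niiA*, 567 ± 32.1 (SD, n = 3) at *glnA*, 599 ± 14.8 (SD, n = 3) at *meaA* and 654 ± 60.9 (SD, n = 3) at *gdhA*. Each neighbour in this order overlapped the next, and none of the 4 means exceeded the median of all peaks, 656 normalized counts per kb in input. In IP, *glnA* had 681 ± 41.3 (SD, n = 3), *niiA* 722 ± 24.7 (SD, n = 3), *meaA* 977 ± 22.3 (SD, n = 3) and *gdhA* 1337 ± 76.9 (SD, n = 3) normalized counts per kb, against a median of 668 over all peaks. The median peak length of the list, 397 bp, is below that of every member. The part of length in the comparisons with the 2 medians was not tested. The IP libraries of *glnA* and *niiA* overlapped, with 651 to 728 at *glnA* and 695 to 741 at *niiA*. Those of *meaA* lay apart, between 955 and 1000, and those of *gdhA* between 1254 and 1407. The plot of levels per kb shows *meaA* and *gdhA* apart from the other members and from each other in IP, while *niiA* and *glnA* overlap. In input, all libraries of *niiA* lay below those of *meaA* and *gdhA*.

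**Figure D1:**
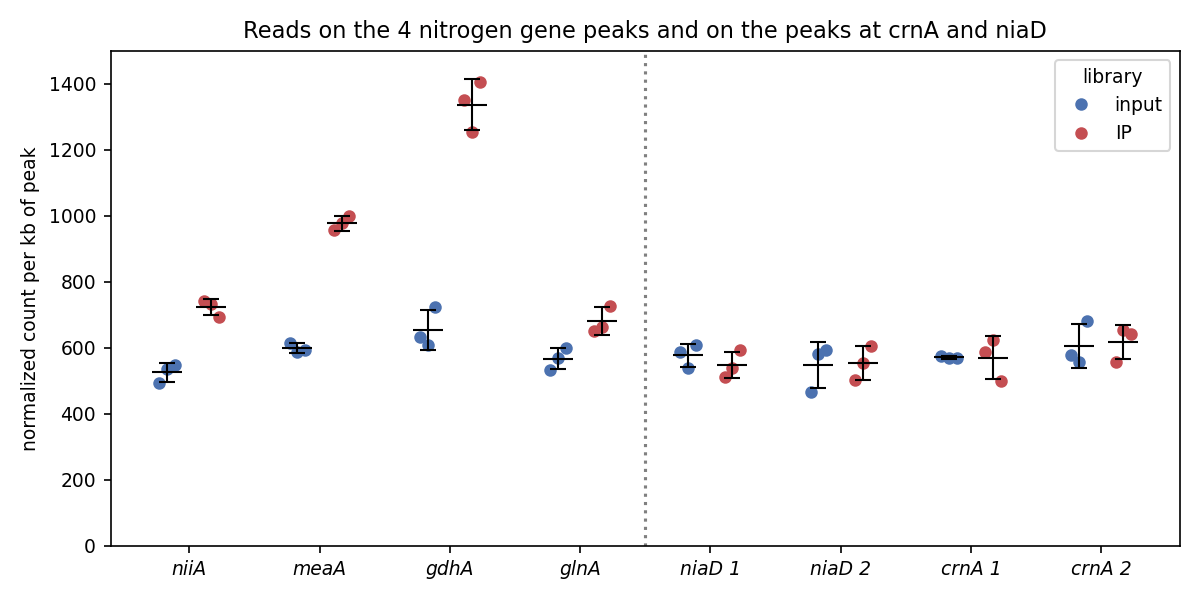
Normalized count per kb of peak in each library (points; input blue, IP red) with mean and SD of 3 libraries (black) for the 4 member peaks and, right of the dotted line, for the pairs of peaks at *niaD* and *crnA*. The *gdhA* IP libraries sit between 1254 and 1407, above every other value plotted, while input and IP overlap at *niaD* and *crnA*.

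A comparison of the members within a library is free of any scaling, because both counts come from the same library. For each of the 6 pairs, the count of one peak was divided by that of the other, and IP was compared with input by edgeR's quasi-likelihood test with the reference peak as offset, adjusted over the other 467 peaks. For *gdhA* over *niiA*, the ratio was 0.696, 0.617 and 0.720 in the input libraries and 0.991, 0.933 and 1.10 in the IP libraries. The *gdhA* peak thus held fewer reads than the longer *niiA* peak in every input library and about as many in IP. The difference in log2 fold change was 0.58 ± 0.10 (standard error), with an edgeR adjusted p of 8.93e-05. Relative to *niiA*, 87.8% of the 467 peaks were called, 2.36% as higher and 85.4% as lower in IP.

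The ratio of *meaA* to *niiA* was 0.791, 0.696 and 0.689 in input and 0.818, 0.847 and 0.914 in IP. The groups were apart, but input replicate 1 came close to IP replicate 1. The difference was 0.24 ± 0.09 (standard error), with an edgeR adjusted p of 0.0198. It missed the threshold in edgeR without input replicate 2 (adjusted p = 0.101), input replicate 3 (0.0938) or IP replicate 3 (0.0588). The ratio of *glnA* to *niiA* was 0.494, 0.485 and 0.4996 in input and 0.401, 0.414 and 0.479 in IP. The difference of -0.19 (95% interval -0.40 to 0.01, edgeR adjusted p of 0.0712) did not pass the threshold, and it did without IP replicate 3 (-0.27, adjusted p = 0.0138). These values allow *glnA* to equal *niiA* in enrichment or to fall short of it by up to 0.40 on the log2 scale.

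The ratio of *gdhA* to *meaA* was 0.880, 0.887 and 1.04 in input and 1.21, 1.10 and 1.21 in IP, a difference of 0.33 ± 0.10 (standard error), with an edgeR adjusted p of 0.00282. Relative to *meaA*, 95.7% of the other 467 peaks were called, 1.5% as higher and 94.2% as lower in IP. The 2 proteins act on ammonium one after the other, MeaA at the cell membrane and glutamate dehydrogenase in its assimilation. The ratio of *glnA* to *meaA* fell from 0.624, 0.697 and 0.725 in input to 0.491, 0.489 and 0.524 in IP, a difference of -0.44 ± 0.09 (standard error), with an edgeR adjusted p of 7.51e-05. The ratio of *glnA* to *gdhA* fell from 0.710, 0.786 and 0.694 to 0.405, 0.444 and 0.435, a difference of -0.77 ± 0.12 (standard error), with an edgeR adjusted p of 3.35e-07. The peak of glutamine synthetase thus lagged behind those of the permease and of glutamate dehydrogenase. Relative to *gdhA*, 98.7% of the other 467 peaks were called and 98.5% were lower in IP. As 94.2% were lower relative to *meaA*, *glnA* shares this direction with nearly the whole list. In all 6 pairs the input and IP ratios did not overlap. For the other peaks this was not counted, and 87.8% to 98.7% of them were called relative to *niiA*, *meaA* or *gdhA*. The lack of overlap is therefore not read as a trait of these pairs. The exact permutation test of 3 libraries against 3 gave p = 0.1 for each pair, the smallest two-sided value it allows.

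**Figure D2:**
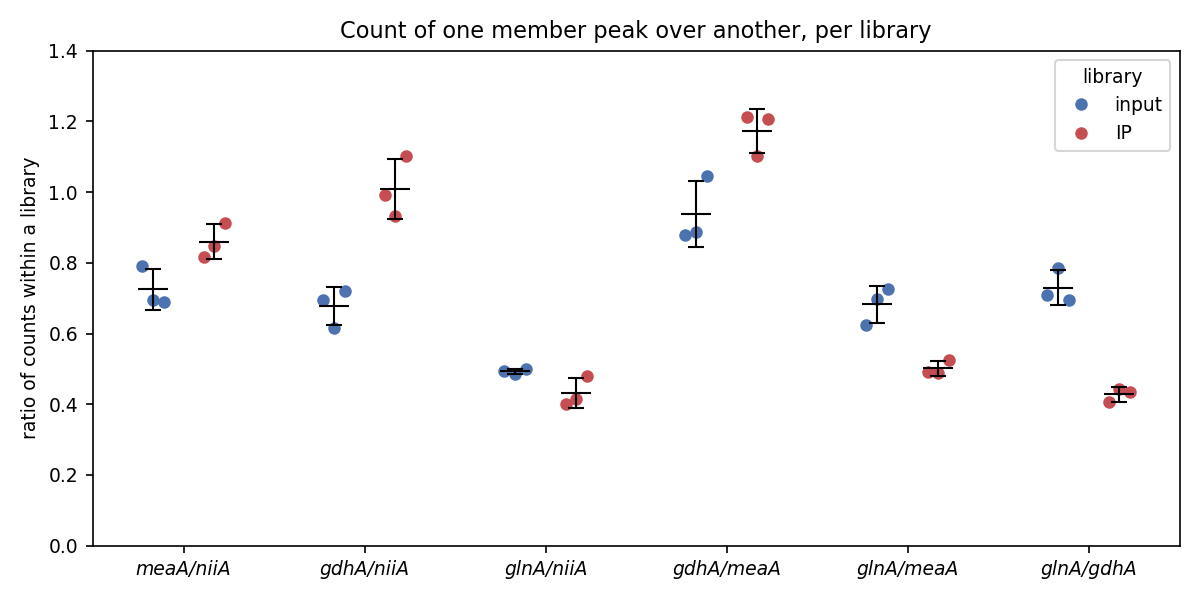
Ratio of the counts of 2 member peaks within each library (points; input blue, IP red) with mean and SD of 3 libraries (black), for the 6 pairs. The ratios of *meaA* and *gdhA* to *niiA* and of *gdhA* to *meaA* are higher in IP, and the ratios with *glnA* as numerator are lower in IP.

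The 4 peaks cover gene bodies. The *niiA* peak covered 94.99% of the 3829-bp gene, the *meaA* peak 98.2% of 2344 bp, the *gdhA* peak 100% of 1767 bp and the *glnA* peak 85.8% of 1864 bp, each with no second gene. Coverage of at least 80% of a gene was found for 67 of the 468 peaks, of which 36 were called higher in IP (53.7%), against 16 of the other 401 (3.99%). The 4 members are among these 36. The median peak length of the list was 397 bp, and all 4 members were at least 1662 bp long. Peaks between 0.5 and 2 times as long as a member, the members left out, had a median log2 fold change of 0.22 for the length of *niiA* (31 peaks), 0.18 for *meaA* (80 peaks), 0.16 for *gdhA* (97 peaks) and 0.12 for *glnA* (114 peaks). Of these peaks, 7 were above *niiA*, 7 above *meaA*, 4 above *gdhA* and 33 above *glnA*.

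The position of the summit, where the merged IP signal was highest, differed between the genes. At *niiA* it was at 1765228. The deposited annotation places *niiA* on the minus strand, with its start at the higher coordinate, so that the summit lay 3381 bp downstream of the gene start and 447 bp before the end of the gene. The annotation nonetheless classes the peak as promoter, with a distance of 187 bp from the peak edge to the gene start. The intergenic region shared by *niiA* and *niaD* (chromosome VIII, 1768610 to 1769876, 1267 bp) contained no base of any peak, and the stretch without a peak ran for 2040 bp from the edge of the *niiA* peak to the nearest *niaD* peak. A region outside the peak list has no count here, so that only the absence of a called peak can be stated.

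For the other 3 genes the strand was not used here, and positions are given from the end with the lower coordinate. The summit of *meaA* (1562142) lay 599 bp into the gene, at 25.6% of its length, and that of *gdhA* (2214673) 362 bp into the gene, at 20.5%. The summit of *glnA* (1860783) was near the middle, 941 bp into the gene (50.5%). The *gdhA* peak began 182 bp outside the lower end of the gene and ran 30 bp past the other end. The *glnA* peak left out the first 265 bp at the lower end and ran 63 bp past the other. The deposited annotation classes the *meaA* and *gdhA* peaks as 5′ UTR and the *glnA* peak as 3′ UTR, although each covers most of its gene. For *glnA* this differs from the study's own list of regions, which gives 5′ UTR. The nearest other peak was 1709 bp from the *niiA* peak, 8974 bp from *gdhA*, 35415 bp from *glnA* and 117825 bp from *meaA*. The *niiA* peak was thus the one with neighbours at its own gene cluster.

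**Figure D3:**
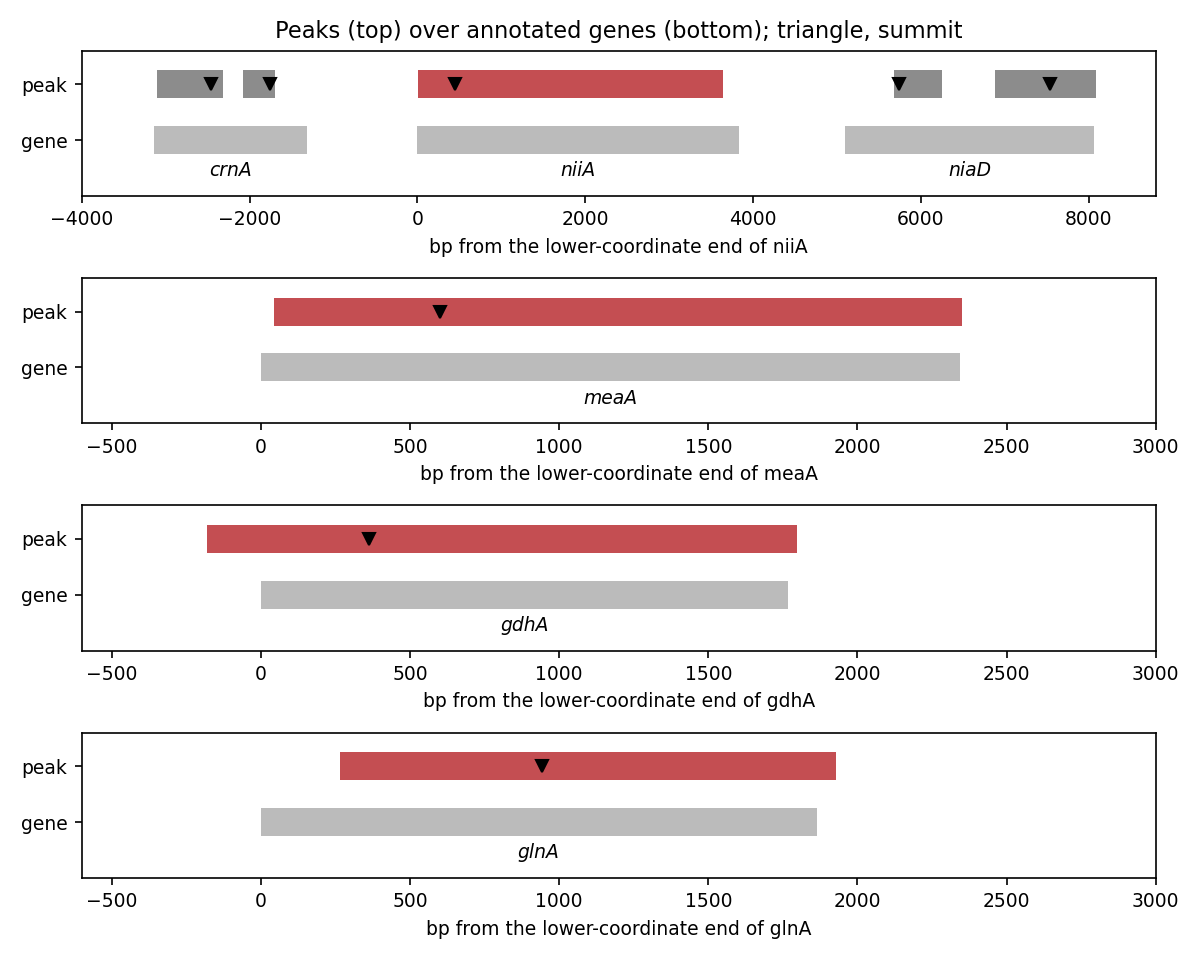
Position of the peaks (upper bars; members red, other peaks grey) and their summits (triangles) over the member genes, *crnA* and *niaD* (lower bars; other genes not drawn), in bp from the lower-coordinate end of each member gene. The *niiA* summit lies at 447 bp, far from the *niiA* start at the right end of the gene, and the region between *niiA* and *niaD* carries no peak.

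At the summit, the merged IP pileup (the number of overlapping fragments) was 561 at *gdhA*, 395 at *meaA*, 273 at *niiA* and 238 at *glnA*, against a median of 189 over the list. The fold enrichment that MACS2 gives for IP against its local background followed the same order, with 4.61, 3.24, 2.39 and 2.08 and a median of 1.53. By fold enrichment, *gdhA* ranked 4, *meaA* 12, *niiA* 41 and *glnA* 53 of 468. By the log2 fold change of the counts, the ranks were 5, 11, 29 and 56. Both measures come from the same reads and are not independent. The fold enrichment is read at the summit and the count over the whole peak, and the former was the larger for each member, for example 4.61 against 2.05 at *gdhA*. The measures also have different centres, with a median over all peaks of 1.53 for the fold enrichment and of -0.02 for the log2 fold change. The part of each difference in this gap was not tested. By pileup alone, *niiA* ranked 98 and *glnA* 140.

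**Figure D4:**
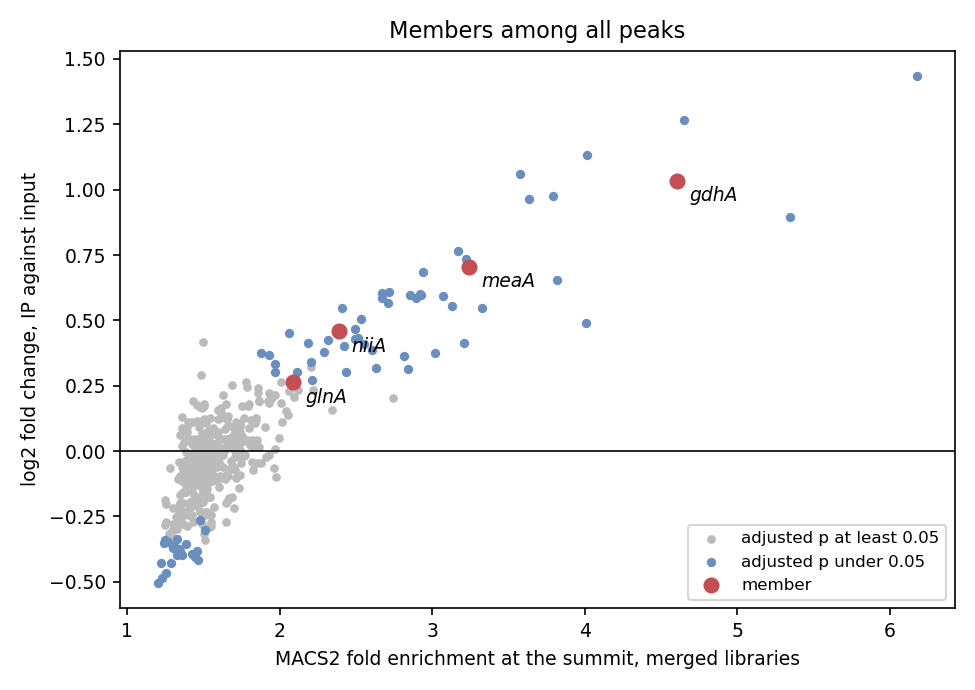
Log2 fold change of IP against input (vertical axis) against the MACS2 fold enrichment at the summit (horizontal axis) for the 468 peaks, with calls in blue and the members in red. The members lie along the main band of points, from *glnA* (2.08, 0.26) to *gdhA* (4.61, 1.03).

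Of 12 further genes of nitrate and ammonium use that were looked up, 5 overlapped a peak (8 peaks in all) and 7 did not and so have no count. None of these 8 peaks was called (0 of 8, edgeR's quasi-likelihood test), where 16.2% of all 468 peaks were called and 11.1% were higher in IP, so that this count is near the share of the whole list. Of the 8, 0 had an unadjusted p under 0.05 and DESeq2 gave the same 2 counts of 0. Their log2 fold changes lay between -0.09 and 0.17 with a median of 0.01, against -0.02 over all peaks. Their MACS2 fold enrichment lay between 1.46 and 1.69, around the median of 1.53 over all peaks. The peak at AN0399, annotated in the study as a high-affinity nitrate transporter gene, had the highest of these values, with normalized counts of 194, 145 and 144 in input and 168, 203 and 176 in IP, which overlap. Its log2 fold change of 0.17 had a 95% interval of -0.13 to 0.46, which holds the value of *glnA* and, narrowly, that of *niiA*. Its difference from *niiA* of -0.30 did not pass the threshold (edgeR adjusted p of 0.0764). The intervals of the *areA* peak and of the 378-bp *crnA* peak also held the value of *glnA*. AN5134, the glutamate synthase gene, had no peak. The regulator genes *nirA* and *nmrA*, the latter coding for the co-repressor of AreA, had no peak. At *areA* a 186-bp peak (chromosome III, 3133805 to 3133990) covered 5.61% of the gene. It had normalized counts of 106, 146 and 144 in input and 115, 160 and 142 in IP, which overlap, and a log2 fold change of 0.06 (95% interval -0.26 to 0.39).

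The genes *crnA* and *niaD* near *niiA* allow a comparison within 1 gene cluster. On the side of *crnA*, the gene next to *niiA* is another annotated gene, 331 bp away, which was not examined. The nitrate transporter gene *crnA* overlapped a peak of 786 bp and one of 378 bp, and the nitrate reductase gene *niaD* one of 566 bp and one of 1207 bp. The longest of them, on chromosome VIII from 1771661 to 1772867 at *niaD*, had normalized counts of 564, 701 and 716 in input and 605, 667 and 732 in IP. Its log2 fold change was 0.02 (95% interval -0.20 to 0.23), and input and IP overlapped. The other *niaD* peak had -0.07 (-0.30 to 0.15), and the *crnA* peaks had 0.00 (-0.21 to 0.21) and 0.03 (-0.22 to 0.29). These values are relative to the typical peak of the list, so that a value near 0 does not mean a lack of IP signal. The MACS2 fold enrichment was 1.53 and 1.69 at the *niaD* peaks and 1.62 and 1.53 at the *crnA* peaks, against a median of 1.53 over the list. Relative to *niiA*, the 4 peaks were lower in IP by log2 differences of -0.54 and -0.44 at *niaD* and -0.47 and -0.43 at *crnA* (adjusted p-values from 0.000956 to 0.00561, edgeR's quasi-likelihood test with *niiA* as offset). As 85.4% of all peaks were lower relative to *niiA*, this difference sets *niiA* apart from these 4 peaks and does not set the 4 peaks apart from the list. The study listed *niiA* as a KaeA region from these same libraries, so that the contrast and its p-values are no independent evidence. The *niiA* peak was longer than each of these peaks, and the part of length in the difference was not tested for these pairs. With the length trend taken out, *niiA* itself was at -0.035 and not called (edgeR adjusted p of 0.868).

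A similar contrast was seen for ammonium uptake. The gene AN1181 on chromosome VIII, which the study annotates as a putative ammonium permease, overlapped a pair of peaks, of 542 and 650 bp, and the translated sequence of both carries the Ammonium Transporter Family domain of Pfam that also marks the *meaA* peak. These are the only 3 peaks of the list with this domain. The AN1181 peaks had log2 fold changes of -0.09 (95% interval -0.33 to 0.15) and 0.00 (-0.22 to 0.23). Their MACS2 fold enrichment was 1.46 and 1.55, against a median of 1.53 over the list. Relative to *meaA* they were lower in IP by -0.80 and -0.70 on the log2 scale (edgeR adjusted p of 8.18e-07 and 1.51e-06 with *meaA* as offset), as were 94.2% of all peaks. The study listed *meaA* as a KaeA region from these same libraries, so that this contrast is no independent evidence. The *meaA* peak (2308 bp) is also longer than both AN1181 peaks, and the part of length in the difference was not tested.

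**Figure D5:**
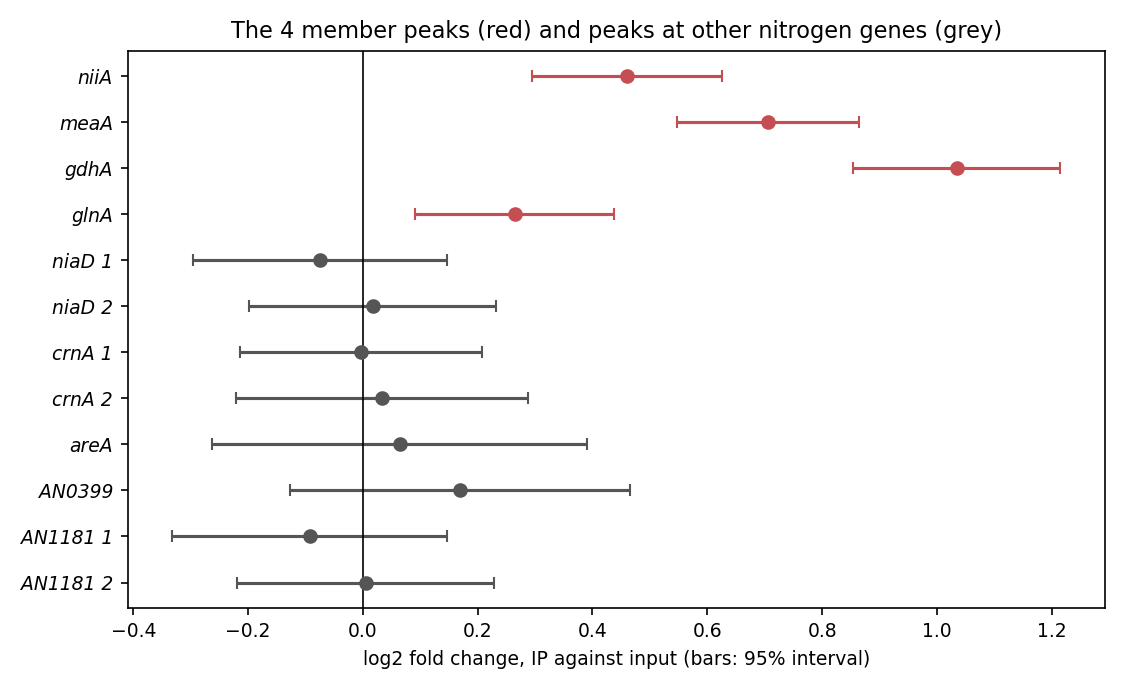
Log2 fold change of IP against input with its 95% interval from edgeR's quasi-likelihood fit for the 4 members (red) and for the 8 peaks at other genes of nitrate and ammonium use (grey; numbers after a gene name count its peaks along the chromosome). The intervals of the 4 members lie above 0, and those of the other 8 peaks include 0.

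The sequences under the peaks encode the enzymes themselves. InterProScan matches to Pfam domains, made by the authors on reading frames translated from the peaks, fell in 186 of the 468 peaks. The *niiA* peak had 6 matches in 5 reading frames, among them the nitrite and sulphite reductase 4Fe-4S domain (82 residues), the ferredoxin-like domain of the same enzymes (62 residues) and the Rieske-like [2Fe-2S] domain (109 residues). The match of the FAD/NAD(P)-binding pyridine nucleotide-disulphide oxidoreductase domain was divided over 2 frames with 174 and 46 residues. The *gdhA* peak carried the glutamate dehydrogenase domain (269 residues) and the dimerisation domain, and the *glnA* peak the catalytic (131 residues) and beta-Grasp domains of glutamine synthetase in 1 frame of 319 residues. The *meaA* peak had the ammonium transporter domain in 3 frames, with 101, 114 and 197 residues. The term nitrate assimilation was attached to only 2 peaks, that of *niiA* and one of the *niaD* peaks.

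Across the 6 libraries, each member was also set beside the 464 peaks outside the set, by the Euclidean distance of log2 normalized counts after the mean of each peak was subtracted. The profile nearest to *niiA* was that of AN2436 (*aclB*, a putative ATP citrate synthase gene), with a distance of 0.09 and a log2 fold change of 0.45. Nearest to *meaA* was AN6973, a putative C-4 sterol methyl oxidase gene (distance 0.19, log2 fold change 0.60), and nearest to *gdhA* was AN5781 (distance 0.29, log2 fold change 1.06). Nearest to *glnA* was the peak at AN1677 (distance 0.10, log2 fold change 0.25, edgeR adjusted p of 0.0626), which was not called. Each of the 4 nearest peaks covered at least 85.6% of its gene.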

How the data were processed

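ChIP-Seq libraries of the KaeA-HA strain (3 input, 3 IP) were grouped by the sample titles. Reads were trimmed (Trimmomatic), mapped to ASM1142v1 (BWA) and freed of optical duplicates (Picard) by the authors, who called peaks with MACS2 on merged replicates. The deposited counts per peak and library are not normalized, and how reads with several mapping places were treated is not given in the sources used here. The deposited peak list gives from MACS2 the pileup signal, the fold enrichment ratio and −log10 p-values. The authors' table of their own edgeR comparison (log2 fold changes and p-values) was not used. Location classes (ChIPseeker) and Pfam matches were taken as deposited.

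Counts were scaled with TMM and tested with edgeR 4.0.16 (R 4.3.3, limma 3.58.1) over all 468 peaks, without a block, at a Benjamini-Hochberg adjusted p of 0.05. A normalized count is a count over the effective size of its library, times the mean effective size. The standard error is the log2 fold change divided by the square root of F. Pairs of peaks were compared with the log count of the earlier gene of the pathway as offset. Genes come from the RefSeq table of ASM1142v1. All 4 members and all 12 further genes were matched. Of the 12, *niaD*, *crnA*, *nirA* and *areA* carry a name there and *nmrA* in the study, and the other 7 are given by their identifiers (AN0399, AN1181, AN2944, AN4900, AN5134, AN7451, AN8647). Named are the 4 members, these 12 genes, the genes under the member peaks and the peak of nearest profile for each member. Members, lists and tests were chosen with earlier results of these data known. Alternatives were other scalings, the likelihood ratio test, DESeq2 1.42.0, a count minimum of 100, the replicate block, removal of the length trend and leaving out each library. Scripts were tested on simulated data. No sequence was printed, since none was used here. Plots were drawn with matplotlib 3.10.9 in Python 3.11.15.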

Additional observations from a re-analysis of the deposited data

How the results depend on the processing

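The *gdhA* and *meaA* peaks kept their direction and their call under all 15 alternatives, with log2 fold changes from 0.57 to 1.11 and from 0.24 to 0.73. The *niiA* peak did under 13 and the *glnA* peak under 7. With TMM on the 60 peaks that MACS2 gave an enrichment of 2 or more, *niiA* was at -0.0056 and *glnA* at -0.20, and with the length trend removed they were at -0.035 and -0.0057. With library size alone, which moved the median of all peaks to -0.13, *glnA* was at 0.16 (adjusted p = 0.215, edgeR's quasi-likelihood test). Without single libraries, *glnA* ranged from 0.21 to 0.30, *niiA* from 0.42 to 0.49, the difference of *meaA* from *niiA* from 0.20 to 0.31 and that of *glnA* from *niiA* from -0.27 to -0.14. The number of called peaks, 76, was 417 with TMM on the enriched peaks, 12 higher and 405 lower in IP. With library size alone 60 were lower, and with the length trend removed 32 were higher. Without single libraries it ranged from 47 (without IP replicate 1) and 49 (without input replicate 1) to 132 (without IP replicate 2), with 7 to 60 lower in IP. The count minimum of 100 removed 49 peaks and no member. The cause of these changes was not tested.

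With the replicate block, the log2 fold changes were 0.46 at *niiA*, 0.71 at *meaA*, 1.03 at *gdhA* and 0.26 at *glnA*, and 83 peaks were called. It changed no call of a member or pair. Deviations of input and IP libraries with the same number correlated at -0.11, -0.05 and 0.03 for numbers 1, 2 and 3, so that no shared deviation was detected. Each member peak held at least 636 reads in every library, and IP libraries differed by more than counting noise.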
